A study of Mus musculus with 3 samples.

Results

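Spry1, Etv4, Etv5 and Fgfr2 are genes of receptor tyrosine kinase signalling in the tip of the ureteric tree, an epithelium that branches through the embryonic kidney and matures into its collecting ducts. They were found by their symbol among the 15096 genes that the array annotation names, and all 4 were present, on 5 probes (NCBI Gene identifiers 24063 for Spry1, 18612 for Etv4, 104156 for Etv5 and 14183 for Fgfr2). RNA of GFP+ cells was set against RNA of GFP- cells, both sorted by fluorescence from kidneys of mouse embryos carrying the HoxB7-GFP transgene, at 15.5 days post coitum, with the sexes pooled. The transgene puts green fluorescent protein under a HoxB7 promoter that is active along the whole ureteric tree, so the GFP+ fraction held stalk as well as tip cells and the tip was not sorted by itself, while the GFP- fraction held all other kidney cells. Both RNAs of a pair were hybridised to 1 array in 2 colours, on 3 arrays in all, with no dye swap per the labels.

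In the branching kidney, Gdnf from the mesenchyme activates the receptor tyrosine kinase Ret with its co-receptor Gfra1 on tip cells, and Fgf7 and Fgf10 act on the same cells through Fgfr2. Both receptors signal through the RAS to MAP kinase cascade and through PI3 kinase, and both induce the ETS transcription factors Etv4 and Etv5, which are needed for branching, and Spry1, a feedback inhibitor that damps the same receptors. Mouse embryos without Spry1 form extra ureteric buds.

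Values are log2 ratios, likely of GFP+ over GFP-, since the titles and the channel order give this direction and the dyes are not stated; a positive value means higher in GFP+ cells. A blank is a feature without a deposited value, and the sources used here do not give the authors' rule for filtering values, so a blank does not measure low expression. Arrays 1, 2 and 3 gave values for 4500, 4418 and 5391 genes, and 3915 genes had a probe with values on all 3. Array 1 stood apart: across these 3915 genes, which are not independent replicates, arrays 2 and 3 had Pearson's r = 0.883, against 0.0799 between arrays 1 and 2 and 0.277 between arrays 1 and 3, and array 1 had the opposite sign to both others for 1958 genes. The median of each marker list kept one sign on all 3 arrays. It was 1.75, 2.15 and 2.24 for 6 ureteric epithelium genes and -2.09, -1.73 and -1.50 for 4 stromal genes. It was -1.51, -1.03 and -1.11 for 6 cap mesenchyme genes, -1.81, -1.98 and -2.02 for 5 macrophage genes, and -0.64, -0.22 and -0.23 for 5 endothelial genes. These medians leave out genes with fewer values. Among those of endothelium, Cdh5 had -2.08 and -1.28 on arrays 2 and 3, and Pecam1 had -1.46 on array 3 alone. Not every gene followed its list: Osr1 of cap mesenchyme had -0.14, 0.41 and 0.25 on arrays 1, 2 and 3. Tek of endothelium had 0.07 on array 2, and Wnt7b of ureteric epithelium had -0.61 on array 2 alone. By limma 5 of the 6 ureteric genes passed as higher, where 1.38% of all genes tested did. As lower passed 4 of 4 stromal, 3 of 6 cap mesenchyme, 5 of 5 macrophage and 0 of 5 endothelial genes, where 1.4% of all did. Of the 5 endothelial genes, 1 had an unadjusted p below 0.05 by limma, where 14.9% of all genes tested had. These lists were chosen with earlier results of these data known, so the counts are no independent check of the sort. Of the defining markers, Cdh1, Epcam and Pax2 of ureteric epithelium, Six2 of cap mesenchyme and Foxd1 of stroma were blank. The levels are ratios of pooled RNA, so fewer cells of a type and less RNA per cell cannot be told apart.

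The promoters of the members show the regulatory sequence in which a match to the ETS factors' own motif could lie, since Etv4 (also called Pea3) and Etv5 are both among the genes measured. The stretches below are the 250 bases before the RefSeq gene start on GRCm38.p6, 5′ to 3′ on the gene's strand, for Spry1 (chr3:37639697-37639946, + strand), Etv5 (chr16:22439571-22439820, - strand) and Fgfr2 (chr7:130266809-130267058, - strand). Capitals mark the PEA3 motif AGGAAG.
Spry1: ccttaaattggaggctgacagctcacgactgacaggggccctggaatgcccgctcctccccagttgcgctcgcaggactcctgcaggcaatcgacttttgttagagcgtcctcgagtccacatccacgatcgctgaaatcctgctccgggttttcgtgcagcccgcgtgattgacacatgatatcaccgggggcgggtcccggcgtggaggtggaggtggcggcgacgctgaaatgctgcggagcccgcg
Etv5: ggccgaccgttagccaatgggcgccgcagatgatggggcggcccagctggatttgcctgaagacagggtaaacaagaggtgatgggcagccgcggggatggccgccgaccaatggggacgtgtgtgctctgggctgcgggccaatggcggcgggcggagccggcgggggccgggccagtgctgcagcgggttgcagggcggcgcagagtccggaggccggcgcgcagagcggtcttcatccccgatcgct
Fgfr2: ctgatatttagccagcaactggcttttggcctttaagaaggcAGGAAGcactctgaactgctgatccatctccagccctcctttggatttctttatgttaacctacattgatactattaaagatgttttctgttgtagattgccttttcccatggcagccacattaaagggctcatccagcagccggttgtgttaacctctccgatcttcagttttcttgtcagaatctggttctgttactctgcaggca
Searched on both strands, AGGAAG occurred once, in the Fgfr2 window, where its first base stood at position -208 from the start. The motif is common, with at least 1 match in 29.5% of all 32851 promoter windows of that length. The stricter ETS sequence CCGGAA, which shares the GGAA core with AGGAAG but not the base before it, so that 1 core cannot match both, was found in 12% of windows. Neither it nor the AP-1 site TGACTCA, found in 4.46% of windows, had a match in these 3 windows or in that of another Etv5 start (chr16:22438369-22438618, - strand), which also lacked AGGAAG. The windows of Spry1 and Etv5 were rich in G and C, at 62.4% and 71.2% with 23 and 27 CpG dinucleotides, whereas that of Fgfr2 had 44% and 2. A match is a description of the letters, and its absence here says nothing of binding.

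Spry1 was higher in GFP+ cells on every array, with log2 ratios of 1.07, 0.88 and 0.90 on arrays 1, 2 and 3, or 2.11-fold, 1.84-fold and 1.87-fold. It sat in the top few percent of each array, at rank 128 of 4500, 138 of 4418 and 122 of 5391 genes from the highest, where 97.2%, 96.9% and 97.7% of genes were lower. The mean was 0.95 ± 0.11 (SD, n = 3 arrays), a 1.93-fold difference with a 95% interval of 1.49 to 2.51-fold, and it passed the threshold of adjusted p below 0.05 (limma, Benjamini-Hochberg over 3915 genes, adjusted p = 0.0386). Of the genes tested, 54 passed as higher, or 1.38% of all, and Spry1 was the 1 of them among the 2 members that could be tested. Its p-value was the 84th smallest where 109 genes passed in either direction, so it lay near the threshold, and 57 genes had a higher mean.

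The 3 arrays gave Spry1 nearly one value. Its range over the arrays, 0.20 on the log2 scale, was below that of most genes, whose median range was 0.58, and 10.3% of genes had a smaller one. Only 35 of the 3915 genes exceeded Spry1's lowest value, 0.88, on all 3 arrays. Without array 1, which stood apart, the mean was 0.89 (limma adjusted p = 0.00238), in a setting where 27.6% of all genes passed as higher. Without array 3 the mean was 0.98 and the call was lost (limma adjusted p = 0.342), and with arrays 2 and 3 averaged to 1 replicate it was 0.98 with limma adjusted p = 0.129.

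Etv5, an ETS factor induced by RET and FGF signalling, differed between arrays in size and sign. Its log2 ratios were -0.08, 0.66 and 0.30 on arrays 1, 2 and 3, or 0.948-fold, 1.58-fold and 1.23-fold. It lay near the middle of array 1, at rank 2350 of 4500, but at 331 of 4418 on array 2 and 1219 of 5391 on array 3, with 47.7%, 92.5% and 77.2% of genes lower. The mean, 0.29 ± 0.37 (SD, n = 3 arrays), did not pass the threshold (limma adjusted p = 0.551), and its 95% interval ran from 0.883 to 1.70-fold. Its range over the arrays was 0.73, larger than that of 68.4% of genes. Without array 1 the mean was 0.48 and passed (limma adjusted p = 0.0238), as did 27.6% of all genes in that direction. All of these values came from 1 of its 2 probes, and the other was blank on every array.

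Etv4, the other PEA3-class factor, and Fgfr2, the receptor, were each measured on array 3 alone and blank on arrays 1 and 2, so neither has a replicate or a test. The log2 ratio was 0.92 for both there, 1.89-fold, with Fgfr2 at rank 115 and Etv4 at rank 117 of 5391 genes. Together with Spry1 at rank 122 they lay within 0.0138 of each other on the log2 scale, and Etv5 was the lowest of the 4 on that array. Array 3 gave the most values, and 762 genes had a value on it alone. The median of those 762 was -0.06 and 44% were positive, and Fgfr2 and Etv4 were 24th and 25th from the highest among them. The receptor has epithelial and mesenchymal splice forms, and which of them the Fgfr2 probe reads was not examined.

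**Figure D1:**
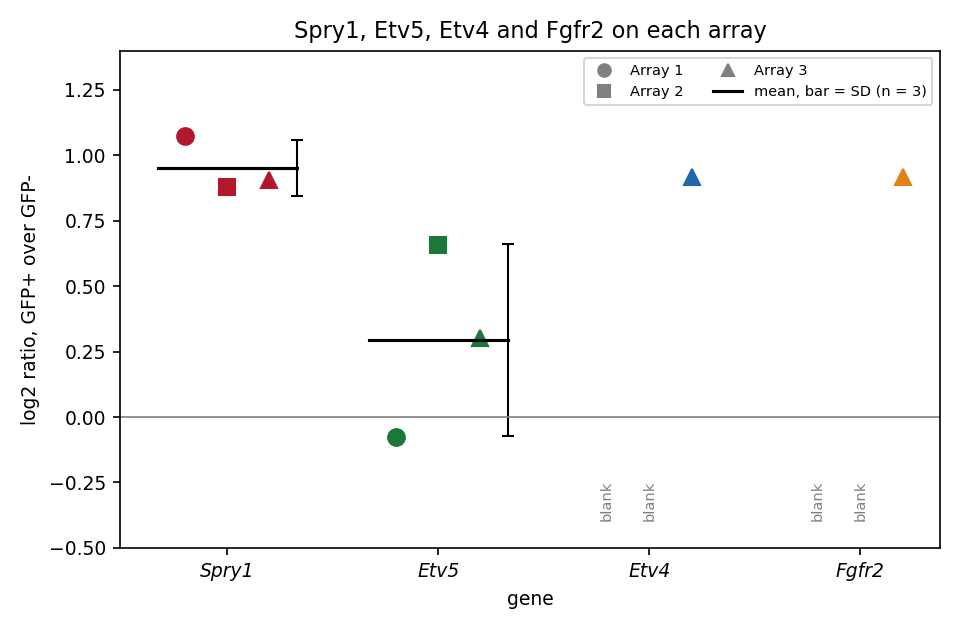
Log2 ratio of GFP+ over GFP- cells for Spry1, Etv5, Etv4 and Fgfr2 (x axis) on array 1 (circle), array 2 (square) and array 3 (triangle), with the mean and SD where all 3 arrays gave a value. Spry1 sits between 0.88 and 1.07 on every array, Etv5 spreads from -0.08 to 0.66, and Etv4 and Fgfr2 have 1 value of 0.92 each.

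The 4 genes gave 8 values in 12 possible places, and 7 of the 8 were positive, the exception being Etv5 on array 1. Over all genes with a value the median was -0.05, 0.08 and 0.06 on arrays 1, 2 and 3, and 2148 of the 3915 genes tested had a positive mean. The 8 values share genes and arrays, so they are not independent observations. Positive values on all 3 arrays were found for 1 of the 2 members measured that often, Spry1, where 20.7% of all genes tested had them. Spry1 exceeded Etv5 by 1.15, 0.22 and 0.60 on the log2 scale on arrays 1, 2 and 3, a mean difference of 0.66 ± 0.47 (SD, n = 3 arrays). The lowest Spry1 value lay above the highest Etv5 value, 0.66. By an exact two-sided sign permutation the difference had p = 0.25, which is the smallest p that 3 arrays allow.

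**Figure D2:**
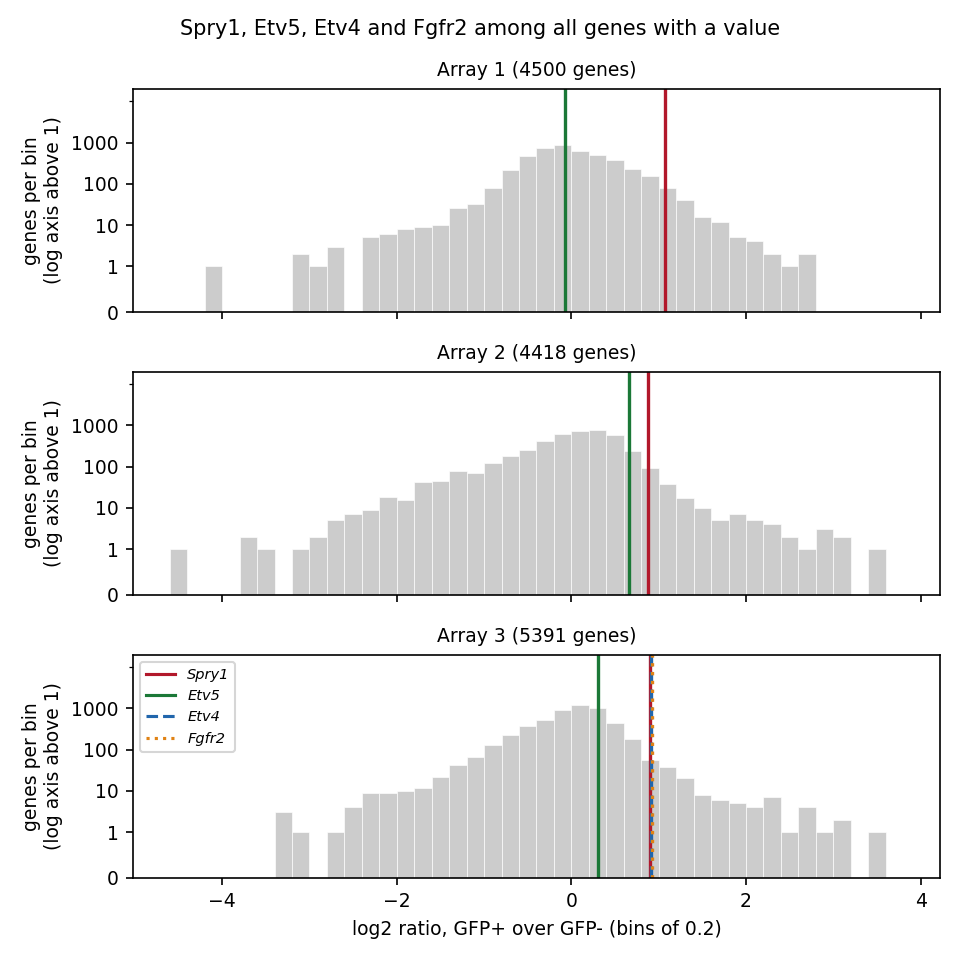
Number of genes per bin of log2 ratio (x axis, GFP+ over GFP-; the y axis is logarithmic above 1) on each array, with vertical lines at the values of Spry1, Etv5, Etv4 and Fgfr2. Spry1 lies in the right tail of all 3 arrays, Etv5 lies at the centre of array 1 and to the right on arrays 2 and 3, and the lines of Spry1, Etv4 and Fgfr2 coincide on array 3.

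The genes around these 4 were taken from lists of the pathway by role, 187 genes in all including the members, of which 159 were named on the array. Values on all 3 arrays were available for 37 of the 159, or 23.3%, against 25.9% of all named genes. Of these 37, Spry1 alone passed as higher and 2 passed as lower, Pla2g7 and Sulf2, where 1.38% of all genes tested were higher and 1.4% lower. The other 35 pathway genes had a median log2 ratio of -0.15, against 0.03 over all genes tested.

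The start of the pathway was almost wholly blank, where 62.6% of all genes named on the array had no value on any array. Of 9 RET ligands and receptors, all on the array, Ret, Gfra1 and Gdnf had no value, and Gfra4, a co-receptor for persephin, had -0.25 on array 1 alone. Of 18 FGF ligands, Fgf2 had 0.41 on array 3 and the other 17 were blank, Fgf7 and Fgf10 included. Among 5 FGF receptors, Fgfr1, Fgfr3 and Fgfr4 were blank, so Fgfr2 was the one FGF receptor kinase with a value. Fgfrl1, an FGF receptor without a kinase domain, had -0.56, -0.22 and -0.16 on arrays 1, 2 and 3. It was negative on all 3 arrays and so on the other side of 0 from Fgfr2, with a mean of -0.32 ± 0.22 (SD, n = 3 arrays) that did not pass (limma adjusted p = 0.455).

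Heparan sulphate on cell-surface proteoglycans is a cofactor by which FGFs bind their receptors, and 7 of 13 genes of its core proteins and enzymes on the array were tested. Sulf2, a secreted sulfatase that removes sulphate groups from heparan sulphate, fell, with -0.97, -0.91 and -0.84 on arrays 1, 2 and 3. The mean was -0.91 ± 0.06 (SD, n = 3 arrays; limma adjusted p = 0.0396), nearly the size of the Spry1 ratio with the opposite sign. The mean of Sulf2 stayed at -0.91 without array 2, -0.94 without array 3 and -0.92 with arrays 2 and 3 averaged, while its call was lost (limma adjusted p = 0.0912, 0.417 and 0.202). The glypican Gpc3 (-0.59 ± 0.53) and the heparan sulphate polymerases Ext1 (-0.49 ± 0.46) and Ext2 (-0.48 ± 0.84) had negative means and did not pass. Without array 1 Ext2 passed as lower by limma, as did 18.9% of all genes. With array weights Gpc3, Ext1 and Ext2 passed as lower, as did 22% of all genes. Negative values on all 3 arrays were found for 4 of the 7, where 15.3% of all genes tested had them, and the list's median was -0.48. The medians of the stromal and cap mesenchyme lists were negative on the same arrays, as given above. The part of these cell types in the heparan sulphate values was not tested.

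Adaptors and kinases carry the signal inward from the receptors. Of 22 adaptor, RAS and MAP kinase genes on the array, 8 were tested and 0 passed by limma in either direction, with 0 at an unadjusted p below 0.05, where 14.9% of all genes tested were. Their median was 0.02, from medians of -0.16, 0.19 and 0.15 on arrays 1, 2 and 3, and their means ran from -0.12, for the adaptor Grb2, to 0.24, for the RAF kinase Braf. Ptpn11, the phosphatase that links receptors to RAS, was the one member positive on all 3 arrays, with 0.13, 0.17 and 0.19. Of all genes tested, 20.7% were positive on all 3. Dok4, an adaptor that binds RET, had -0.21, 0.47 and 0.28. As for Etv5, array 1 had the opposite sign to both others, which held for 50% of all genes tested. In the PI3 kinase branch, the regulatory subunit Pik3r2 (-0.23 ± 0.22) and the AKT-activating kinase Pdpk1 (0.29 ± 0.30) were the 2 genes tested, and neither passed. Without array 1, Braf, Dok4 and Pdpk1 passed as higher (means 0.40, 0.38 and 0.46, limma adjusted p from 0.0156 to 0.0285), as did 27.6% of all genes. The same 3 passed with array weights, as did 33.4% of all genes.

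**Figure D3:**
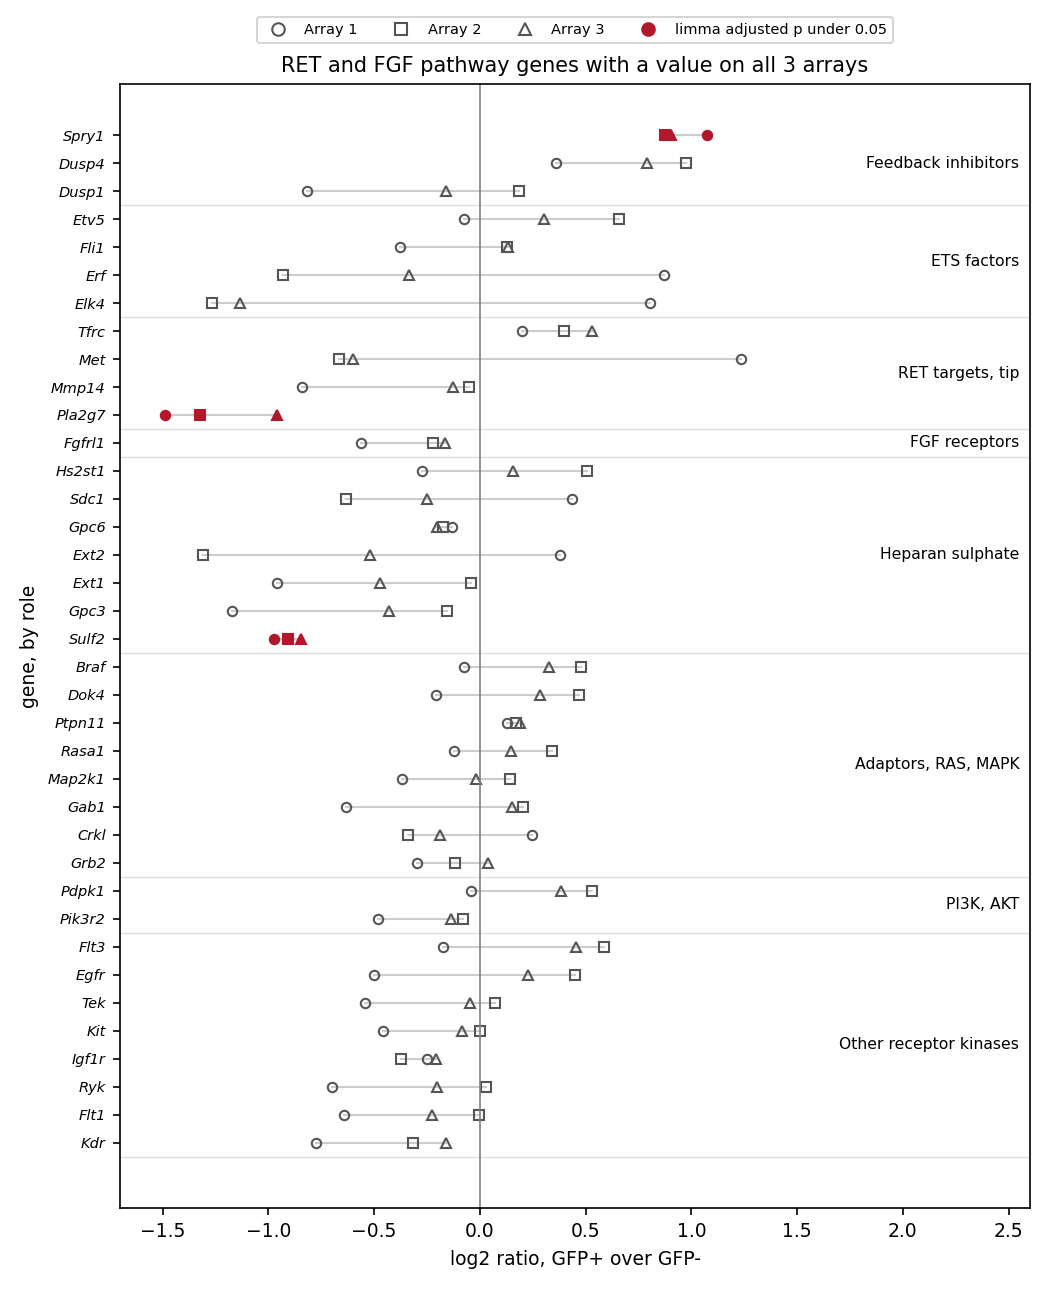
Log2 ratios of GFP+ over GFP- cells (x axis) on array 1 (circle), array 2 (square) and array 3 (triangle) for the 37 pathway genes with a value on all 3 arrays, grouped by role down the page, with filled red symbols where limma adjusted p was below 0.05. Spry1 lies to the right, Sulf2 and Pla2g7 to the left, and 15 of the 35 genes other than Spry1 and Etv5 have array 1 on one side of 0 and arrays 2 and 3 on the other.

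The feedback inhibitors, the group to which Spry1 belongs, had 15 genes on the array and 3 tested. Dusp4, a nuclear phosphatase that switches off MAP kinases, had 0.36, 0.97 and 0.79 on arrays 1, 2 and 3. It was positive on all 3 arrays, but its mean of 0.71 ± 0.31 (SD, n = 3 arrays) missed the threshold (limma adjusted p = 0.146). It passed without array 1 (mean 0.88, limma adjusted p = 0.00303) and with array weights (0.83, limma adjusted p = 5.32e-05), where 27.6% and 33.4% of all genes passed as higher. Its relative Dusp1, an immediate early gene, had -0.82, 0.19 and -0.16, with no common sign. The sprouty genes Spry2 and Spry4 were blank, as was Dusp6, so no other sprouty could be set beside Spry1. Measured in part, Spred2, which blocks RAF activation, had -0.22 and 0.31 on arrays 1 and 3, and the phosphatase Dusp14 -0.12 and 0.25 on the same arrays. Lrig1, which promotes loss of receptor kinases, had 0.52 on array 3, and Lrig3 -0.34 and -0.60 on arrays 2 and 3.

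Among 23 ETS factors, all on the array, 4 were tested and 0 passed by limma, with 0 at an unadjusted p below 0.05, where 14.9% of all genes tested were. Etv5 had the one positive mean of the 4. Erf, an ETS repressor that ERK kinase drives out of the nucleus, had 0.87, -0.93 and -0.33 on arrays 1, 2 and 3. Elk4, a partner of serum response factor, had 0.81, -1.27 and -1.13. Both ran against Etv5, being positive on array 1 and negative on arrays 2 and 3, and without array 1 or with array weights both passed as lower by limma, beside 18.9% and 22% of all genes. Fli1, an endothelial and blood cell factor, had -0.38, 0.13 and 0.13. Elf1 had 0.21 on array 3, below Etv4 there, and Etv1, the third PEA3-class factor, was blank.

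The tip list, of RET targets and genes known from the ureteric tip or tree, had 20 genes on the array and 6 tested, 2 of them members. Wnt11, a RET target of the tip, was blank. Tfrc, the transferrin receptor, had 0.20, 0.40 and 0.53 on arrays 1, 2 and 3, positive on all 3 but short of the threshold (mean 0.38 ± 0.17, SD, n = 3 arrays, limma adjusted p = 0.363). It passed without array 1 (mean 0.46, limma adjusted p = 0.0146) and with array weights (0.49, limma adjusted p = 0.00106), where 27.6% and 33.4% of all genes passed as higher. Pla2g7, a secreted phospholipase that macrophages also make, fell instead, with -1.49, -1.32 and -0.96, a mean of -1.26 ± 0.27 (SD, n = 3 arrays) and limma adjusted p = 0.024. The 5 macrophage markers tested were all lower as well (range of means -2.84 to -1.56), and their part in the Pla2g7 value was not tested. Mmp14, a membrane metalloproteinase, had -0.84, -0.05 and -0.13 and did not pass.

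A pair of tip genes are named after their values were seen. Met, the receptor of hepatocyte growth factor, had 1.23 on array 1, against -0.67 and -0.60 on arrays 2 and 3, so its mean of -0.01 ± 1.08 (SD, n = 3 arrays) describes no array. Myb, a transcription factor reported as a RET target, had 1.26 on array 3 and was blank on the others, as Etv4 and Fgfr2 were. Its value there was above those of all 4 members.

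Among 33 other receptor tyrosine kinases on the array, 9 were tested and 0 passed by limma in either direction, with 0 at an unadjusted p below 0.05, where 14.9% of all genes tested were. Their median was -0.18. On all 3 arrays 0 of the 9 were positive and 3 were negative, where 20.7% and 15.3% of all genes tested were. The VEGF receptors Kdr (-0.42 ± 0.32) and Flt1 (-0.29 ± 0.32), both endothelial, and the Wnt receptor Ryk (-0.29 ± 0.37) had negative means, and Flt3, a kinase of blood progenitors, had 0.29 ± 0.41. On array 3 the highest of these 9 was Flt3 at 0.45, below the 0.92 of Fgfr2. Without array 1 or with array weights, Egfr and Flt3 passed as higher and Met as lower by limma, and with array weights so did Igf1r as lower. In these 2 settings 27.6% and 33.4% of all genes passed as higher, and 18.9% and 22% as lower. Axl, a receptor for Gas6 named after its values were seen, had the lowest ratios of the list, -2.76 and -1.81 on arrays 2 and 3, and was blank on array 1. It passed as lower where genes with at least 2 values were tested (mean -2.28, limma adjusted p = 0.0238), as did 1.69% of all genes in that setting.

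The genes nearest to a member were found by the Euclidean distance between log2 ratios over the 3 arrays, among the 3915 tested. For Spry1 they were Hoxb3, a homeobox gene (distance 0.10), Ldhb, a subunit of lactate dehydrogenase (0.12), the chemokine Ccl21c (0.16), the fatty acid binding protein Fabp3 (0.23) and the small heat shock protein Hspb1 (0.25). All 5 had means between 0.91 and 1.06 and passed the threshold by limma, with adjusted p from 0.0241 to 0.0396. They were picked by the same ratios that limma tested, so means and calls like those of Spry1 were largely set by the choice. Ccl21c has near-identical copies in the mouse genome, so its signal may be shared. Around Etv5 the genes lay much closer, with Mfap3 at 0.042, Zmym2 at 0.057, Med26 at 0.059, and Cope and 4930511E03Rik at 0.075 each, and none of these 5 passed by limma (smallest adjusted p = 0.531). The measure says that the ratios are alike and nothing of shared control.

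**Figure D4:**
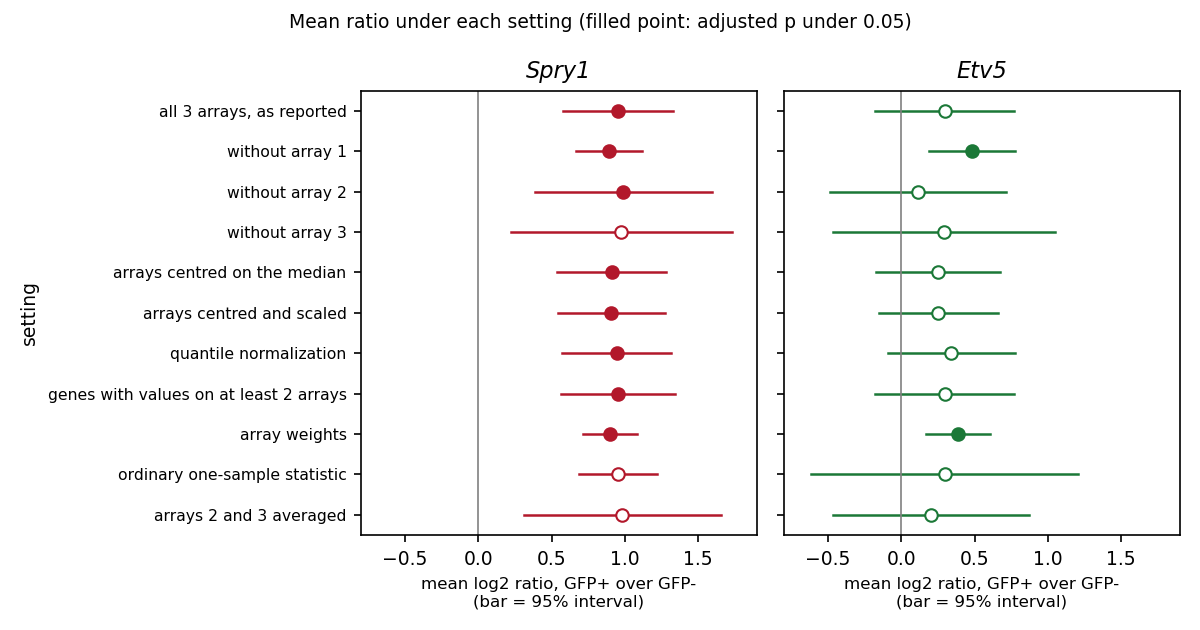
Mean log2 ratio of GFP+ over GFP- cells with its 95% interval (x axis) for Spry1 (left) and Etv5 (right) under each setting of the test (y axis), with filled points where adjusted p was below 0.05. Spry1 stays between 0.89 and 0.99 in all settings, and the Etv5 mean moves between 0.11 and 0.48.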

How the data were processed

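RNA of sorted GFP+ and GFP- cells was compared on 3 arrays of the Mouse Compugen design, which form 1 group of 3 replicates. Per the labels, the images were analysed in Imagene 5.5, the control channel was adjusted along a Lowess curve that used 20% of the data at each point, and a control channel under 10 was set to 10. The deposited values are log2 ratios: 2 raised to the value was a whole number of thousandths, within 0.01 of a thousandth, for 99.97% of values, against 2.37% for base e. No raw intensities were analysed here. Symbols were updated through gene identifiers to the GRCm38.p6 RefSeq table, which matched 16566 of 17252 probes with 1 symbol. A gene was the mean of its probes with values on the most arrays. A gene's mean was tested for a difference from 0 by limma 3.58.1 under R 4.3.3 (lmFit, then eBayes, two-sided, Benjamini-Hochberg over 3915 genes, threshold 0.05). The test was tried on simulated data with independent noise on each array. Those data lacked the likeness of arrays 2 and 3, so the trial does not cover it. Whether the arrays drew on separate embryo pools is not stated in the labels, so the p-values cover the spread between arrays alone, possibly a technical one, and 3 arrays set the precision. Gene-specific dye effects and differences between the cells cannot be told apart, as the labels list no dye swap. The members and the lists were chosen with earlier results of these data known. Named were the members, fixed RET and FGF genes, the genes of each list past the threshold or among its 4 of largest mean, every gene with a value in lists with fewer than 5 tested, and the 5 nearest genes; others are marked. Promoter sequences are RefSeq's and were found for 3 of the 4 members. Alternatives were leaving out each array, centring, scaling, quantile normalization, genes with 2 values, array weights, an ordinary one-sample statistic, probes in place of genes, and arrays 2 and 3 averaged.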

Additional observations from a re-analysis of the deposited data

How the results depend on the processing

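Spry1 had a positive mean in every setting run, from 0.89 to 0.99 as each array was left out, and lost its call without array 3 (limma adjusted p = 0.342), with the ordinary one-sample statistic (mean 0.95, adjusted p = 0.245) and with arrays 2 and 3 averaged (mean 0.98, limma adjusted p = 0.129). Etv5 had means from 0.11 to 0.48 as arrays were left out and passed without array 1 (limma adjusted p = 0.0238) and with array weights (mean 0.39, limma adjusted p = 0.00782), which gave array 1 a weight of 0.15, against 1.55 and 4.31 for arrays 2 and 3. Neither gene changed its call after centring, scaling, quantile normalization, with genes of at least 2 values or over probes. The genes higher and lower over all 3915 were 54 and 55, and ranged from 23 to 1080 and from 51 to 738 as arrays were left out. Array weights gave 1309 and 861, the ordinary statistic 1 and 0 (284 and 187 at an unadjusted p below 0.05), arrays 2 and 3 averaged 29 higher, and quantile normalization 84 lower. Pathway genes past the threshold, 1 higher and 2 lower, ranged from 0 to 9 and from 1 to 7 as arrays were left out. They were 9 and 10 with array weights, 0 and 0 with the ordinary statistic, and 0 and 1 with arrays 2 and 3 averaged. Without array 1, the pathway shares were 24.3% higher and 18.9% lower, against 27.6% and 18.9% of all genes. The cause of these changes was not tested. Etv4 and Fgfr2 entered no setting, with 1 value each. With 3 arrays and no raw intensities, signal over background could not be examined. Each ratio already pairs GFP+ with GFP- RNA on 1 array, and no further block was fitted, as the arrays form 1 group.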
